A study of Mus musculus with 34 samples.

Results

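Endothelial cells line blood and lymphatic vessels, and 32 genes that mark them were followed across neonatal mouse heart cells and cells reprogrammed to cardiomyocytes. The genes were chosen by symbol, and all 32 were found by the gene name that the array files give, on 38 probes, among 19417 genes tested. The series holds 34 single-colour Agilent arrays in 17 groups of 2, all from CD1 mice with the aMHC-GFP genotype. Induced cardiomyocytes (iCM) were cardiac fibroblasts 4 weeks after a retrovirus that carries Mef2c, Gata4 and Tbx5 together. Cardiomyocytes from induced pluripotent stem cells came from 2 lines made from cardiac fibroblasts with Oct4, Sox2, Klf4 and cMyc, taken on day 13 for the first line (iPSC1-CM D13) and on days 9 and 29 for the second (iPSC2-CM D9 and D29). A time course held fibroblasts with the 3 cardiac factors (MGT) and with a LacZ control virus on days 3, 5, 7, 10 and 14, and the fibroblasts of day 0 (CF D0). Neonatal cardiomyocytes (neoCM) and neonatal cardiac fibroblasts (neoCF) were isolated from pups at postnatal day 1.5. The iCM and the stem-cell-derived cells were kept with VEGF at 5 ng/ml, bFGF at 10 ng/ml and FGF10 at 25 ng/ml. No sorting step is given in the labels, and the medium of the time course is not given there either.

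A level here is the log2 of the background-adjusted intensity minus the 75th percentile of its array, so 0 is that percentile, and values were compared for 1 gene across groups and not between genes. Differences are log2, with the standard error (SE) and adjusted p of limma over all 19417 genes (n = 2 arrays a group), and calls required an adjusted p below 0.05 together with at least 2-fold. Between 28715 and 44881 spots an array were well above background, none was saturated, and 18 of the 32 genes were well above background on all 34 arrays. The arrays lay on 6 slides scanned on 3 days. The labels do not say that replicates were separate cultures, so p-values measure only the spread between these samples. That spread is 1 estimate a gene over all 17 groups, and not that of the 2 groups compared. The 2 arrays of iPSC2-CM D29 stood apart from each other, with a summed log2 level of 7 fibroblast markers of 8.07 and 3.40, and of LacZ D10, replicate 2 had 6.92 for 8 macrophage markers against 5.15 in replicate 1. LacZ D14 replicate 2 was the dimmest array.

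Vascular endothelium is built on VEGF receptors (Kdr, Flt1, Flt4), the angiopoietin receptor Tek with its partner Tie1, and junction proteins such as Cdh5, Cldn5 and Esam. ETS factors such as Erg and SoxF factors (Sox7, Sox18) drive the endothelial programme, while Prox1 directs lymphatic identity. Some of these genes are not exclusive to endothelium: Prox1 is also made by cardiomyocytes, Pdpn and Eng by fibroblasts, Cd34 by interstitial cells and Fabp4 by adipocytes.

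Upstream sequences were available in RefSeq (GRCm38.p6) for 18 of the 32 genes, with 24 promoters, and 4 are shown to set genes that were lower with the 3 cardiac factors (Tie1, Robo4, Tek) beside Flt1, whose levels lay above the control on each day. Each is the 250 bases before the transcript start, 5′ to 3′ on the gene's strand, and capitals mark AGGAAG or CGGAAG, forms of the ETS site, on either strand. The forms differ in their first base, so no match counts under both.
Tie1 (chr4:118489850-118490099, minus strand): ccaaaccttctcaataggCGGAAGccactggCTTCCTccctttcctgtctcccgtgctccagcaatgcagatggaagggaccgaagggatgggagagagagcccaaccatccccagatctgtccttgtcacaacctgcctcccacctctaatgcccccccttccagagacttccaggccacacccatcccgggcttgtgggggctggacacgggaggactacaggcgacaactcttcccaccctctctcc
Robo4 (chr9:37401722-37401971, plus strand): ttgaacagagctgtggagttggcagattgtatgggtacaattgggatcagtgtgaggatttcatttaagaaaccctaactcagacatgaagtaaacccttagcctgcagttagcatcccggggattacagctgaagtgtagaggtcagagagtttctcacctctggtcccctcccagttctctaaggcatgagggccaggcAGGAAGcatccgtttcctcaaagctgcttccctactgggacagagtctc
Tek (chr4:94739039-94739288, plus strand): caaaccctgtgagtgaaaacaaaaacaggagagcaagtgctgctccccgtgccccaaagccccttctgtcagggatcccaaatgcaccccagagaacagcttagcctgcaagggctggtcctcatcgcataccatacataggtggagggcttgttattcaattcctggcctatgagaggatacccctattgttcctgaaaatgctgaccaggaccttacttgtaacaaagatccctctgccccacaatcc
Flt1 (chr5:147726012-147726261, minus strand): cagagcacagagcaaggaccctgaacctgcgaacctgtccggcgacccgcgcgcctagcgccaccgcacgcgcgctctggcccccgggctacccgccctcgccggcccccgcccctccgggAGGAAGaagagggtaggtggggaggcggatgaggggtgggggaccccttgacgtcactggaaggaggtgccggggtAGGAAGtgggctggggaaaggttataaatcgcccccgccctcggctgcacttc
Tie1 and Flt1 held 2 matches each, Robo4 held 1 and Tek held 0. A match was found in 10 of the 24 promoters of these genes (41.7%) and in 12880 of 32851 promoters of all genes (39.2%).

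The highest group mean lay in neoCF for 25 of the 32 genes. For 24 of the 32 both neoCF arrays lay above all other arrays, as they did for 4.02% of all genes tested. The median over the 32 genes was -1.82 in iCM, -1.01 in iPSC1-CM D13, -0.39 in iPSC2-CM D9 and -2.15 in iPSC2-CM D29. It was 0.42 in neoCM, 0.60 in CF D0 and 3.22 in neoCF. In the time course it ran -0.98, -2.17, -3.00, -3.14 and -2.50 in MGT cells on days 3, 5, 7, 10 and 14, and 0.12, -0.90, -1.58, -1.96 and -0.94 in LacZ cells. The 7 genes with another highest group were Kdr (LacZ D14), Flt1, Apln and Esm1 (CF D0), Prox1 (iPSC2-CM D9), Pdpn (iCM) and Ecscr (MGT D3). The lowest group was iPSC2-CM D29 for 7 genes, and iCM and MGT D10 for 5 genes each. The 2 iPSC2-CM D29 arrays differed, with medians over the 32 genes of -1.03 in replicate 1 and -3.2 in replicate 2, so its place depends on replicate 2. In these bulk samples, fewer endothelial cells and less RNA per endothelial cell cannot be told apart.

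**Figure D1:**
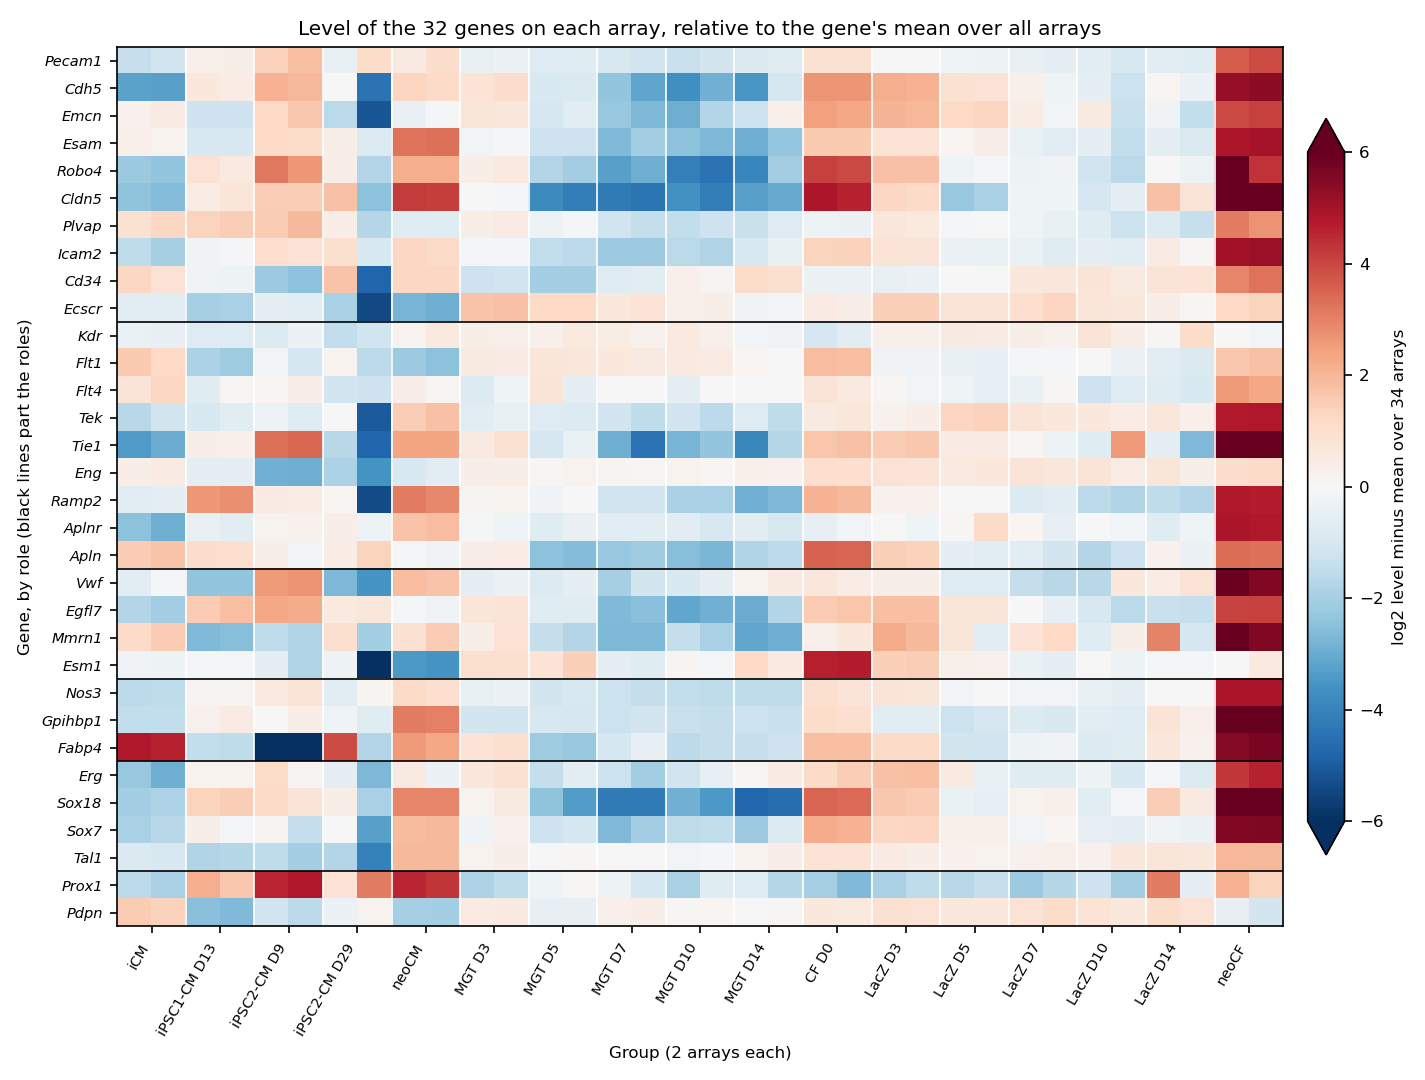
Heat map of the log2 level of each of the 32 genes (rows, ordered by role) on each of the 34 arrays (columns, by group), drawn as the difference from the gene's mean over all arrays. The neoCF arrays hold the highest values for 24 genes, while Pdpn, Prox1, Kdr, Flt1, Apln, Esm1 and Ecscr have another highest group.

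Cardiomyocytes isolated from pups were set against fibroblasts from the same age. In neoCM, 27 of the 32 genes were lower than in neoCF and 1 was higher, while 16.3% of all genes tested were called lower and 15.4% higher. The median difference was -3.54 for the 32 genes and -0.06 for all genes. The von Willebrand factor gene Vwf, a clotting protein that endothelium stores and secretes, had 0.42 and 0.29 in neoCM, against 4.43 and 4.13 in neoCF (-3.92 ± 0.46 SE, adjusted p = 7.1e-07). The nitric oxide synthase gene Nos3 had 0.86 and 0.72 in neoCM, against 4.63 and 4.62 in neoCF (-3.84 ± 0.17 SE, adjusted p = 1.6e-12). In both genes the 2 groups lay far apart. Prox1 was the 1 gene called higher, with -0.63 and -0.89 in neoCM, against -3.09 and -3.87 in neoCF (2.72 ± 0.80 SE, adjusted p = 0.008), and leaving out neoCF replicate 2 gave 2.33 at adjusted p = 0.07. The difference of Pdpn was -1.22, and -0.92 without neoCF replicate 1, which is under 2-fold. The 4 genes not called were Kdr (0.51), Tal1 (-0.00), Ramp2 (-1.76 at adjusted p = 0.11) and Cd34 (-1.87 at adjusted p = 0.15). Kdr and Cd34 each have another probe, on which they were called lower in neoCM (-4.14 and -1.75). Beside this, 7 of 7 cardiomyocyte markers were higher in neoCM, with a summed log2 level of 10.60 and 10.67 in neoCM, against 7.34 and 6.81 in neoCF. All 8 macrophage markers were lower, at 1.98 and 1.96 in neoCM, against 6.52 and 5.99 in neoCF, and the part of either list in the result was not tested. Slide and scan day differed between the groups and cannot be told apart from cell type.

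Fibroblasts at the start of the course were set against the neonatal cardiac fibroblasts on the same slide. In CF D0, 23 genes were lower and 2 higher than in neoCF, while 18.1% of all genes were called lower and 16.3% higher. The median difference was -3.11 for the 32 genes and 0.05 for all genes. Gpihbp1, which carries lipoprotein lipase to the capillary lumen, had -0.50 and -0.62 in CF D0, against 4.48 and 4.56 in neoCF (-5.08 ± 0.16 SE, adjusted p = 1.6e-14). Aplnr, the apelin receptor, had -4.06 and -3.72 in CF D0, against 1.36 and 1.26 in neoCF (-5.20 ± 0.29 SE). Pecam1, a junction adhesion molecule, had -1.18 and -1.17 in CF D0, against 1.56 and 1.81 in neoCF (-2.86 ± 0.30 SE). Prox1 was not well above background in CF D0 and was at least 3.47-fold lower than in neoCF. Esm1, a proteoglycan secreted by endothelial tip cells, was higher, with 4.22 and 4.25 in CF D0, against -0.51 and 0.14 in neoCF (4.42 ± 1.03 SE, adjusted p = 0.001). Pdpn was also higher, with 4.68 and 4.64 in CF D0, against 3.53 and 2.94 in neoCF (1.42 ± 0.18 SE). The call of Pdpn ended under quantile normalisation, normexp with quantile and the authors' log2 values. The 7 genes not called were Kdr, Flt1 (0.12), Eng (-0.11), Apln (0.20), Ecscr (-0.83), Emcn (-1.66 at adjusted p = 0.077) and Robo4 (-1.15 at adjusted p = 0.096). The calls of Ramp2 and Tal1 were lost without any 1 of the 4 arrays, that of Cdh5 without neoCF replicate 2 or either CF D0 array, and that of Cd34 without neoCF replicate 2, with adjusted p between 0.051 and 0.082. Many markers of other cells were also lower in CF D0. All 7 cardiomyocyte markers were lower (summed log2 level 4.10 and 3.92 in CF D0, against 7.34 and 6.81 in neoCF). Of the 8 macrophage markers 6 were lower and 2 higher (4.65 and 4.50, against 6.52 and 5.99). Of the 6 smooth muscle and pericyte markers 4 were lower and 1 higher, and 4 of 4 mesothelial markers were lower. The part of these lists in the result was not tested.

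**Figure D2:**
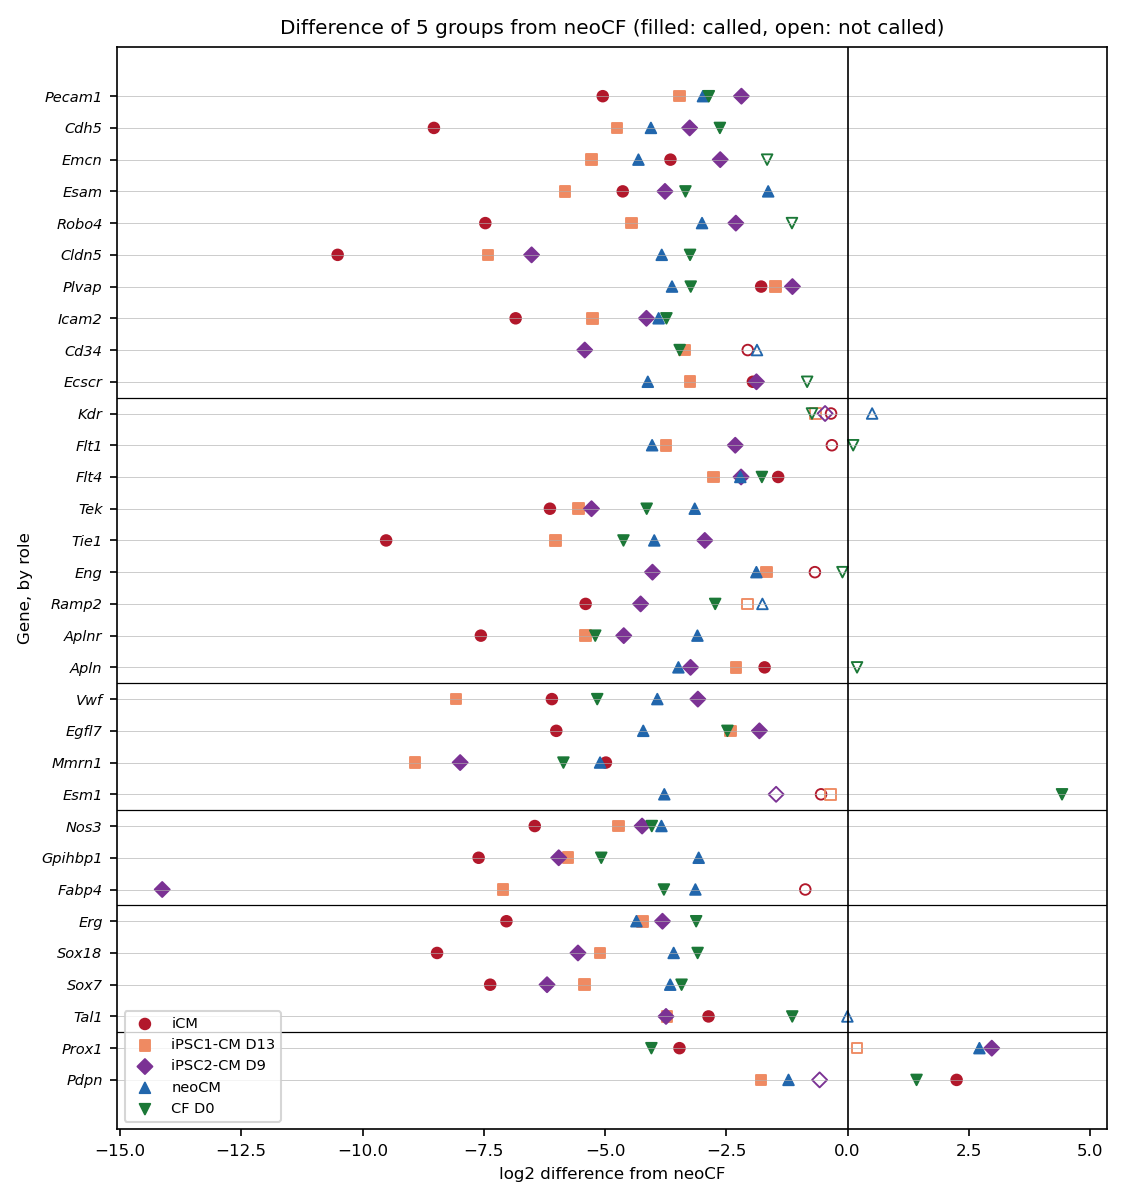
Log2 difference from neoCF (horizontal axis) of the 32 genes (rows, by role) in iCM, iPSC1-CM D13, iPSC2-CM D9, neoCM and CF D0, with filled markers where called and open ones where not. Most markers lie below 0, while Prox1 in neoCM and iPSC2-CM D9, Pdpn in iCM and CF D0, and Esm1 in CF D0 were called higher.

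LacZ cells against CF D0 give the course in culture without the cardiac factors. On day 3, 7 genes were lower and 1 higher in LacZ cells than in CF D0, while 5.99% of all genes were called lower and 9.49% higher. Flt1, the VEGF receptor that binds the ligand with little signalling, had 2.72 and 2.74 in LacZ D3, against 4.80 and 4.75 in CF D0 (-2.04 ± 0.35 SE, adjusted p = 0.00015). Apln, the ligand of Aplnr and a gene of tip cells, had 0.64 and 0.60 in LacZ D3, against 2.73 and 2.71 in CF D0 (-2.10 ± 0.24 SE, adjusted p = 1.6e-06). The others lower on day 3 were Cldn5 (-3.56), Esm1 (-3.26), Robo4 (-2.27), Sox18 (-1.86) and Gpihbp1 (-1.73), and Esm1 was no longer called with any single array removed (adjusted p 0.081 to 0.086). By day 14, 17 genes were lower and 2 higher in LacZ D14 than in CF D0, while 12.1% of all genes were called lower and 15.5% higher. Of the 17, Flt4 and Erg were not well above background in LacZ D14. Their bounds were at least 1.26-fold and 1.745-fold lower, both under 2-fold. Both calls ended under normexp with quantile, that of Flt4 also with the authors' log2 values and that of Erg on its other probe. Egfl7, a matrix protein secreted by endothelium, had 1.34 and 1.29 in LacZ D14, against 4.21 and 4.33 in CF D0 (-2.96 ± 0.27 SE, adjusted p = 3.4e-08). Robo4, a guidance receptor of endothelium, had -1.49 and -1.79 in LacZ D14, against 2.59 and 2.46 in CF D0 (-4.17 ± 0.57 SE). Prox1 was called higher, with -2.10 and -5.75 in LacZ D14 and no level well above background in CF D0, and the 2 LacZ D14 arrays differ widely. It was at least 2.54-fold higher by the LacZ D14 mean, while replicate 2 alone gave 0.72-fold, so no increase. Without LacZ D14 replicate 2, the day 14 calls of Cdh5 (adjusted p = 0.072), Icam2 (0.12), Erg (0.1) and Tie1 (0.12) were lost, and those of Cdh5, Icam2 and Erg also without a CF D0 array (0.052 to 0.064). Kdr rose on both days on the probe that stands for it (1.15 on day 3 and 1.43 on day 14) and fell on its other probe (-1.37 and -2.33). Its calls dropped under 2-fold without CF D0 replicate 1 on day 3 (1.00) and without LacZ D14 replicate 2 on day 14 (0.90). Of the macrophage markers, 7 of 8 were higher in LacZ D14 than in CF D0 (summed log2 level 7.56 and 8.04, against 4.65 and 4.50), and their part in the result was not tested. LacZ D3 and CF D0 differ in slide and scan day, which cannot be told apart from time, and both comparisons share the CF D0 arrays.

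MGT against LacZ cells of the same day gives the difference that goes with the 3 cardiac factors. Between 3 and 13 of the genes were called lower on a day, the most on day 7. Averaged over days 3 to 10, where both groups shared a slide on each day, 14 of the 32 genes were lower and 0 higher in MGT cells, while 4.42% of all genes were called lower and 5.47% higher. The median difference was -0.75 for the 32 genes and -0.09 for all genes. Of the 10 junction and surface genes, Cdh5 (-2.02 ± 0.43 SE), Emcn (-2.00 ± 0.39 SE), Esam (-1.47 ± 0.15 SE), Icam2 (-1.18 ± 0.17 SE), Cldn5 and Robo4 were lower. Among receptors and ligands these were Tek (-1.72 ± 0.43 SE), Apln (-1.35 ± 0.12 SE) and Tie1. The SoxF factors Sox7 (-1.49 ± 0.33 SE) and Sox18, the secreted Egfl7 (-1.63 ± 0.14 SE) and Mmrn1, and Nos3 (-1.07 ± 0.08 SE) complete the 14. Of the 14, 5 were not well above background on either MGT array on 1 or more of these days, so only a bound is given for them, with MGT cells at their detection limit on such days and no difference on days when neither group was detected. On that scale Tie1 (adjusted p = 0.00065) was at least 4.38-fold lower and Robo4 (adjusted p = 4.3e-06) at least 4.02-fold lower, each with MGT cells not detected on day 10. Cldn5 (adjusted p = 1.1e-05) was at least 2.21-fold lower, with neither group detected on day 5 and MGT cells not detected on days 7 and 10. Sox18 (adjusted p = 2.1e-08), not detected in MGT cells on days 5, 7 and 10, was at least 2.09-fold lower. Mmrn1 (adjusted p = 0.001), for which neither group was detected on days 5 and 10 nor MGT cells on day 7, was at least 1.67-fold lower, which is under 2-fold. With these bounds the median over the 32 genes was -0.66. None of these 14 calls was lost when 1 array was left out, while normexp with quantile normalisation ended those of Sox18, Sox7, Cldn5, Nos3 and Mmrn1.

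By day, Egfl7 had 3.40 and 3.44 on day 3, 0.03 and 0.17 on day 7 and -0.33 and 0.93 on day 14 in MGT cells, against 4.46 and 4.46, 2.67 and 2.19, and 1.34 and 1.29 in LacZ cells. Cdh5, the VE-cadherin of endothelial junctions, had 0.08 and 0.28 on day 3 and -3.10 and -3.93 on day 7 in MGT cells, against 1.42 and 1.35, and -0.47 and -1.01 in LacZ cells. Apln had -0.41 and -0.37 on day 3 and -3.06 and -2.95 on day 7 in MGT cells, against 0.64 and 0.60, and -1.46 and -1.92 in LacZ cells. In all 3 genes both arrays of MGT cells lay below both arrays of LacZ cells on the days given. With 2 arrays a group, the groups did not overlap in 26 to 30 of the 32 genes on each day, in either direction.

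Counted by day, 3 genes were lower on day 3, when 1.86% of all genes were called lower and 3.18% higher, and 8 were lower and 1 higher on day 5 (3.30% lower and 4.94% higher of all genes). On day 7, 13 were lower and 0 higher (3.49% and 5.29% of all genes), on day 10 it was 9 and 0 (3.39% and 5.25%), and on day 14 it was 10 and 0 (7.33% and 5.84%). Of the 32 genes, 20 had a lower group mean in MGT cells on all 5 days, as did 29.7% of all genes tested. Flt1 was the 1 gene with a higher mean on all 5, as in 16.2% of all genes. Egfl7 and Apln were called on 5 days, and Esam, Sox18, Robo4 and Nos3 on 4. Sox18 was not well above background in MGT cells on days 5 to 14 and was at least 4.54-fold lower on day 7 and at least 9.93-fold lower on day 14. On days 5 and 10 its bounds were 1.35-fold and 1.38-fold, which is under 2-fold. In LacZ cells Sox18 was well above background on only 1 array on each of days 5, 10 and 14. Cldn5 was at least 5.49-fold lower on day 7 and at least 20.5-fold lower on day 14, while its bound on day 10, also called, was 1.81-fold. Several calls of single days needed all 4 arrays and were lost with any 1 removed. On day 3 this held for Egfl7 (-1.06 to -1.02, adjusted p 0.099 to 0.12) and Apln (-1.03 to -0.99, adjusted p 0.06 to 0.074), and on day 5 for Robo4 (-1.91 to -1.57, adjusted p 0.12 to 0.23) and Icam2 (-1.22 to -1.12, adjusted p 0.11 to 0.15). It also held for Cdh5 (-3.19 to -2.37, adjusted p 0.079 to 0.23) and Emcn (-2.94 to -2.33, adjusted p 0.068 to 0.17) on day 7, and for Icam2 (-1.15 to -0.98, adjusted p 0.12 to 0.22) on day 10. The day 5 call of Aplnr was lost without MGT D5 replicate 1 (adjusted p = 0.094) or LacZ D5 replicate 2 (-0.66 at adjusted p = 0.24). On day 7, that of Sox7 was lost without MGT D7 replicate 1 or either LacZ D7 array (adjusted p 0.071 to 0.16), that of Tie1 without MGT D7 replicate 2 or either LacZ D7 array (0.051 to 0.15), and that of Mmrn1 without MGT D7 replicate 1 (0.054) or LacZ D7 replicate 2 (0.067). On day 10, that of Tie1 was lost without either MGT D10 array or LacZ D10 replicate 2 (adjusted p 0.054 to 0.28), and that of Cldn5 without MGT D10 replicate 2 (0.055). The day 10 differences of Nos3 (-0.98 without LacZ D10 replicate 1) and Apln (-0.93 without LacZ D10 replicate 2) dropped under 2-fold. Tie1 was not well above background in MGT D10 and was at least 7.46-fold lower than in LacZ D10, or at least 2.42-fold from LacZ D10 replicate 1 alone. On day 14 Egfl7 (-1.02) had -0.39 without MGT D14 replicate 1. Mmrn1 was not well above background in MGT D14 nor in LacZ D14 replicate 2, and was at least 3.62-fold lower by the LacZ D14 mean. That bound rests on LacZ D14 replicate 1, which alone gave at least 14.4-fold, while replicate 2 alone gave 0.91-fold, so no decrease. Without replicate 1 the measured difference of Mmrn1 was -2.02, and quantile normalisation ended its call. Prox1 was well above background on 1 array of each group on day 14, and its difference (-2.50) was -0.68 without LacZ D14 replicate 1. The change in the difference between days 3 and 10 was called for 0 of the 32 genes with limma (1.97% of all genes), with 2 at an unadjusted p under 0.05 and a lowest adjusted p of 0.264. MGT D14 and LacZ D14 lay on different slides of 1 scan day, and slide cannot be told apart from virus there.

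**Figure D3:**
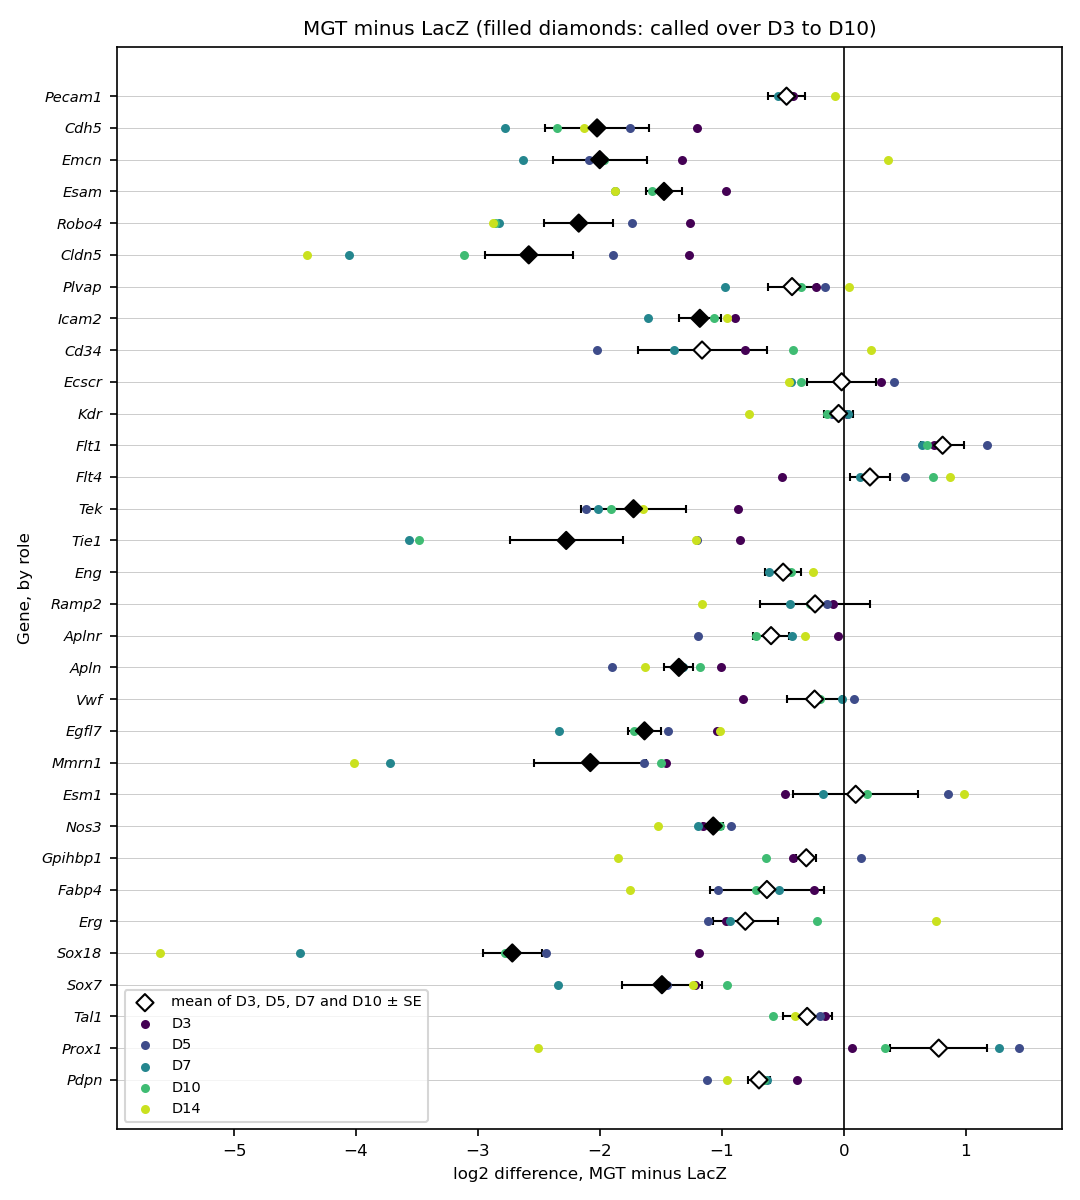
Log2 difference of MGT minus LacZ cells (horizontal axis) for each of the 32 genes, with diamonds for the mean of days 3, 5, 7 and 10 (± SE, filled where called) and small points for single days, day 14 included, all as measured, also where Tie1, Robo4, Cldn5, Sox18, Mmrn1, Erg, Flt4 or Prox1 was not well above background. Most points lie below 0, 20 genes do so on all 5 days, and Flt1 lies above 0 on all 5.

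**Figure D4:**
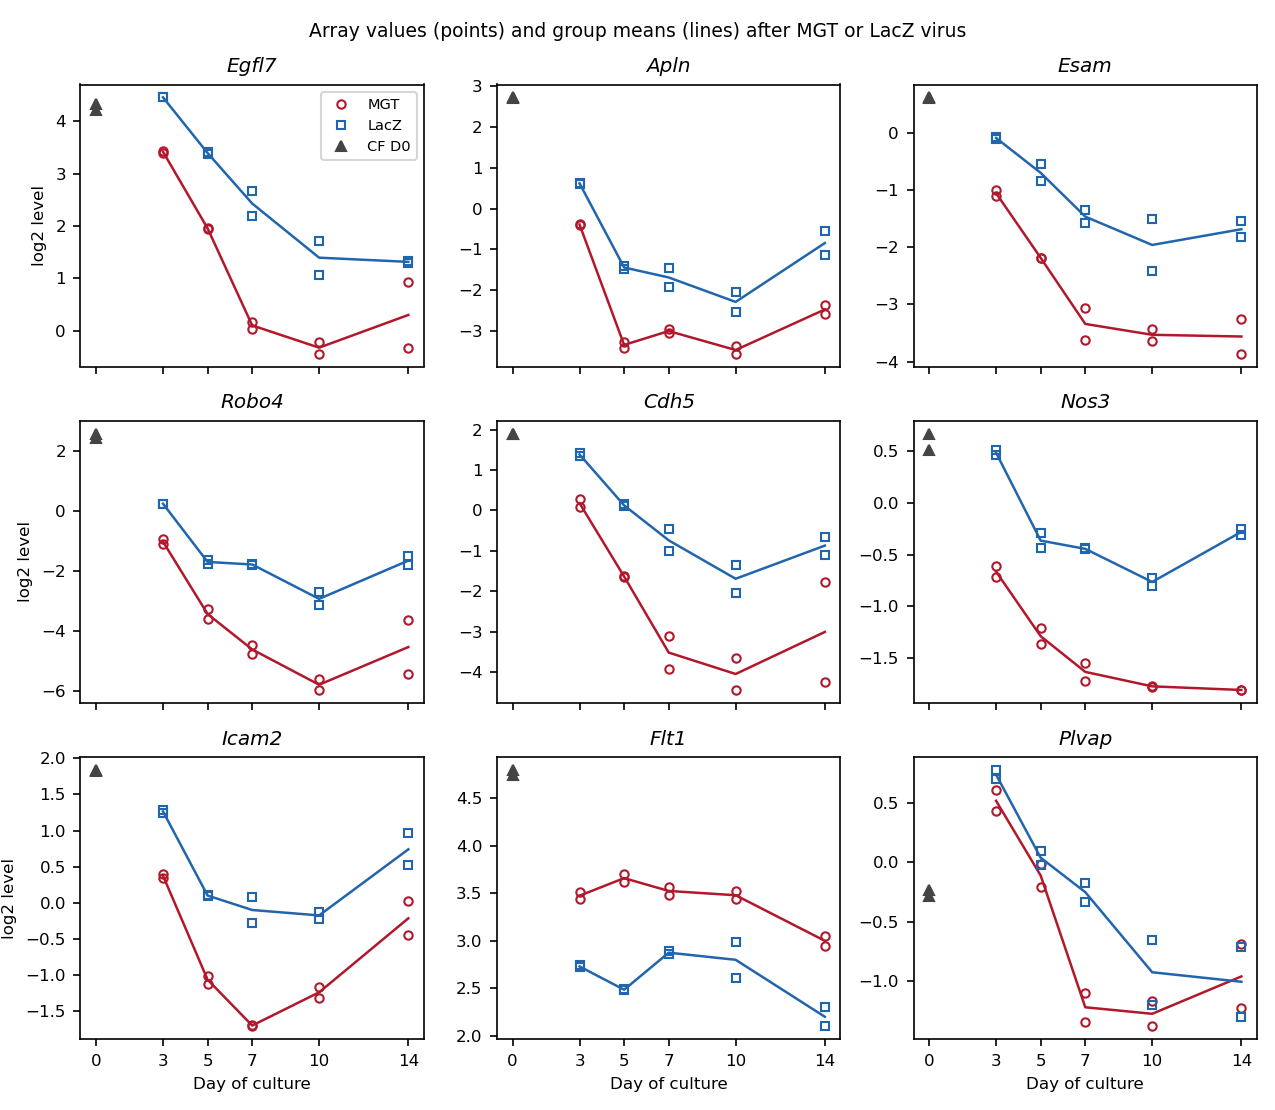
Log2 level by day of 9 genes in MGT (circles) and LacZ (squares) cells, 1 marker an array, with lines through the group means and triangles for CF D0. Egfl7, Apln, Esam, Robo4, Cdh5, Nos3 and Icam2 lie lower in MGT cells on each day, Flt1 lies higher, and the arrays of Plvap overlap on days 5, 10 and 14.

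Flt1 had 3.51 and 3.44 on day 3, 3.70 and 3.62 on day 5, 3.57 and 3.48 on day 7, 3.52 and 3.44 on day 10 and 3.05 and 2.95 on day 14 in MGT cells. In LacZ cells it had 2.72 and 2.74, 2.49 and 2.48, 2.86 and 2.89, 2.99 and 2.61, and 2.30 and 2.10. The arrays of the 2 groups did not overlap on any day, but on each day this held for 26 to 30 of the 32 genes, in either direction. The averaged difference of Flt1, 0.81 ± 0.17 (SE, limma adjusted p = 0.001), stayed under 2-fold. Only day 5 was called (1.17), a call lost on removing any array (1.14 to 1.21). The genes with an adjusted p under 0.05 but less than 2-fold were Pdpn (-0.70), Aplnr (-0.60), Eng (-0.50), Pecam1 (-0.47), Gpihbp1 (-0.31) and Erg, all lower in MGT cells. Erg was not well above background in MGT cells on days 5, 7 and 10. The remaining genes were Kdr, Flt4, Vwf, Plvap, Ramp2, Cd34, Prox1, Esm1, Fabp4, Ecscr and Tal1, with adjusted p between 0.099 and 0.973. Cd34 has another probe, on which limma called it lower in MGT cells (-1.11 ± 0.20 SE, adjusted p = 0.00018). On that probe it was also called lower on days 5 (-1.68) and 7 (-1.45), but not on days 3, 10 and 14. Beside these, 7 of 7 cardiomyocyte markers were higher in MGT cells (median 6.23), with a summed log2 level from 8.42 to 9.79 in MGT and from 4.32 to 5.84 in LacZ cells over days 3 to 10. Of the fibroblast markers 2 of 7 were lower and 1 higher (9.43 to 9.73 in MGT and 9.71 to 10.15 in LacZ cells), and the part of these lists in the result was not tested. With limma 0 of 8 macrophage markers were called (3.90 to 5.66 in MGT and 3.65 to 6.92 in LacZ cells).

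Other genes of vessel signalling were followed on a list of 39, of which 38 were tested. Averaged over days 3 to 10, 12 were lower and 1 higher in MGT cells, with a median of -0.86, against 4.42% lower, 5.47% higher and a median of -0.09 for all genes tested. Lower were the ligands Vegfd (-2.41), Angpt2 (-1.65) and Jag1 (-1.41), the Notch receptor Notch4 (-1.40), the flow-responsive factor Klf2 (-1.57), Gata2 (-1.63), Hey2, Lyve1 (-1.42), Ptprb (-1.28), Selp (-1.18), Angptl4 (-1.07) and Npr3 (-2.29). Hey2 was not well above background in MGT cells on days 3 and 5 and was at least 2.46-fold lower with MGT cells at their detection limit there. Lyve1 had -4.73 and 0.64 in LacZ D10, of which replicate 2 is the array with the higher macrophage level, and its averaged difference was -0.74 without that replicate (adjusted p = 0.061). Its call was also lost without any other single array but LacZ D10 replicate 1, at adjusted p of 0.053 to 0.073. Angpt1, the activating ligand of Tek made mainly by cells beside the endothelium, was higher (2.64 ± 0.40 SE).

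Kdr, the main VEGF receptor of endothelium, is measured by 2 probes that differed in direction. The probe with the higher mean, which stands for the gene above, lies at chr5:76330395-76330454 (mm9, minus strand), and the other lies at chr5:76329309-76329368. The first ranged from 1.12 to 3.72 over all arrays, with 3.06 and 2.87 in MGT D7, against 2.99 and 2.87 in LacZ D7. The other had 0.92 and 0.81 in MGT D7, against -1.79 and -1.91 in LacZ D7, and 5.02 and 5.16 in neoCF. On the other probe Kdr was lower in CF D0 than in neoCF (-3.95) and higher in MGT than in LacZ cells from day 5 (1.41, 2.72, 3.03 and 1.64 on days 5, 7, 10 and 14), but not called on day 3 (-0.48 at adjusted p = 0.431). Averaged over days 3 to 10 the difference was 1.67 ± 0.14 SE (adjusted p = 1e-08), and it rose between days 3 and 10 by 3.51 ± 0.40 SE (adjusted p = 2.8e-05). In iCM it was lower than in neoCF (-3.22) and higher than in LacZ D14 (3.06). The analysis of this other probe was added after seeing the data. Which probe reports the Kdr transcript was not tested, and the direction for Kdr depends on it.

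**Figure D5:**
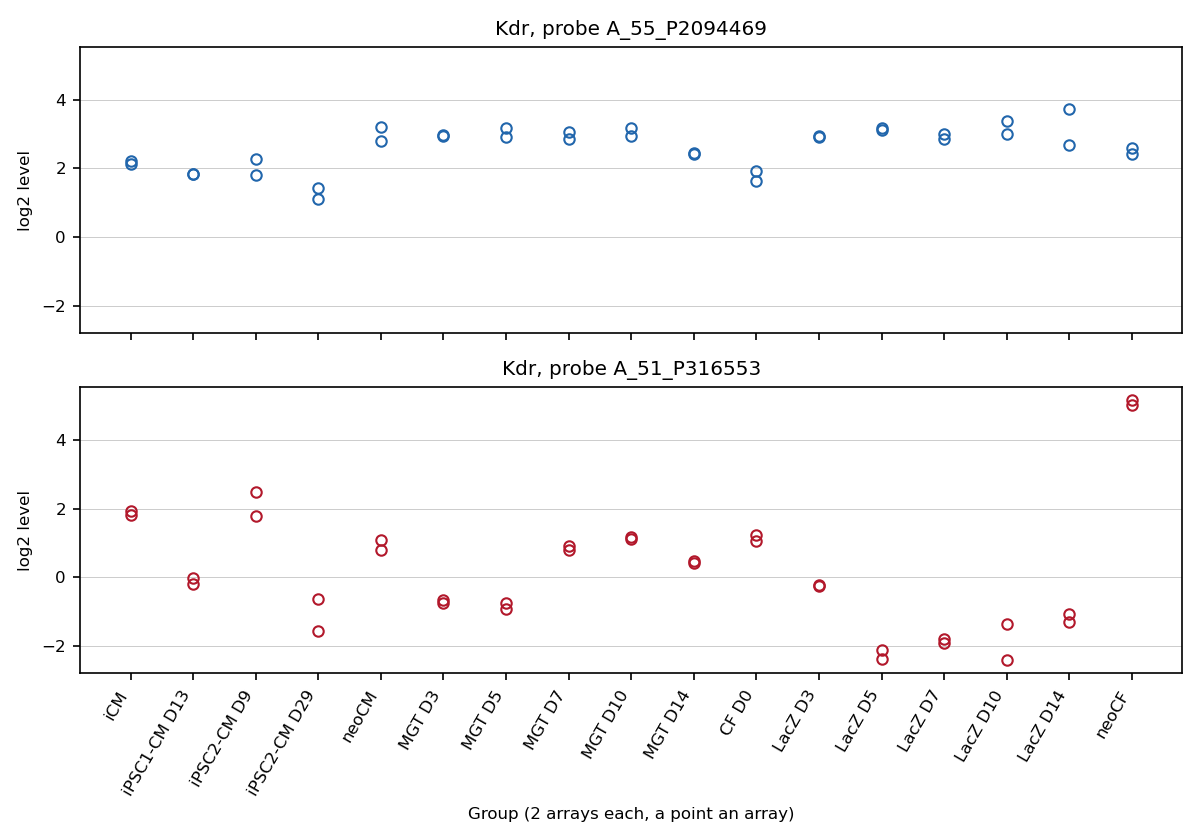
Log2 level of Kdr by group on its 2 probes, 1 panel a probe on the same scale and 1 point an array. The upper probe ranges from 1.12 to 3.72, while the lower one is highest in neoCF and lies higher in MGT than in LacZ cells from day 5.

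The iCM, taken 4 weeks after the factors, were low in most of these genes. In iCM, 25 genes were lower and 1 was higher than in neoCF, while 20.1% of all genes were called lower and 16.8% higher, and the median difference was -5.01. Cldn5, a tight junction protein, had -5.88 and -6.08 in iCM, against 4.43 and 4.63 in neoCF (-10.51 ± 0.72 SE, adjusted p = 4.8e-10). Only 1 of the 2 iCM arrays was well above background for Cldn5, so the size of this difference is uncertain. Pdpn was the 1 gene higher, with 5.55 and 5.42 in iCM, against 3.53 and 2.94 in neoCF (2.25 ± 0.18 SE, adjusted p = 2.9e-09). Not called were Kdr, Flt1 (-0.32), Eng (-0.67), Cd34 (-2.06 at adjusted p = 0.103), Esm1 (-0.55) and Fabp4 (-0.87). On its other probe Cd34 was called lower in iCM than in neoCF (-1.90, limma adjusted p = 0.00044). Set against LacZ D14, 12 genes were lower and 6 higher in iCM, while 18.2% of all genes were called lower and 10.1% higher. The 6 higher were Fabp4, Plvap (2.20), Flt1 (2.13), Flt4, Apln (1.66) and Esam (1.01), and the call of Esam was lost without iCM replicate 1 or LacZ D14 replicate 2 (adjusted p 0.053 and 0.082). Flt4 was not well above background in LacZ D14 and was at least 1.59-fold higher in iCM, which is under 2-fold. Its call ended under normexp with quantile and the authors' log2 values. Kdr (-1.03) had -0.51 without LacZ D14 replicate 2. Prox1 was not well above background in iCM nor in LacZ D14 replicate 2, and was at least 5.23-fold lower in iCM by the LacZ D14 mean. From LacZ D14 replicate 1 alone it was at least 18.5-fold lower, and from replicate 2 alone 1.48-fold. Without replicate 1 the measured difference of Prox1 was -1.19. Its call also ended under quantile normalisation, normexp with quantile and the authors' log2 values. Erg, counted among the 12 lower, was not well above background in either group, so no fold is given. Fabp4, a fatty acid carrier, had 6.57 and 6.34 in iCM, against 2.36 and 1.99 in LacZ D14 (4.28 ± 0.93 SE, adjusted p = 0.00094) and 7.23 and 7.42 in neoCF. Beside it, 4 of 4 adipocyte markers were higher in iCM, with a summed log2 level of 4.03 and 4.04, against -5.07 and -2.62 in LacZ D14 and -4.15 and -4.69 in neoCF. Against LacZ D14, 3 of 4 mesothelial and 7 of 7 cardiomyocyte markers were higher in iCM. Lower were 4 of 4 proliferation, 4 of 8 macrophage, 2 of 5 platelet and erythroid and 1 of 7 fibroblast markers. Of the 6 smooth muscle and pericyte markers, 2 were higher and 2 lower. The part of these lists in the result was not tested. The iCM lay on another slide and scan day than either reference, which cannot be told apart from the cells.

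Cardiomyocytes from stem cells were set against neoCF, the group in which most of these genes were highest. By group mean, iPSC2-CM D9 ranked next below neoCF for Pecam1, Tie1, Vwf, Egfl7 and Plvap. Other genes went the other way: it was the lowest of the 17 groups for 3 genes, Eng and Cd34 among them. From the highest group down it ranked 11 for Sox7, 9 for Tek and 7 for Sox18. In iPSC1-CM D13, 28 genes were lower and 0 higher than in neoCF (32.2% of all genes called, 16.3% lower), with a median of -4.34. In iPSC2-CM D9, 28 were lower and 1 higher (20.8% of all genes lower and 22.7% higher), with a median of -3.50. The 1 higher gene was Prox1, at -0.62 and -0.39 in the iPSC2-CM D9 arrays and -3.09 and -3.87 in the neoCF arrays (2.97 ± 0.80 SE, adjusted p = 0.003). Mmrn1, a protein of platelets and endothelium, was not well above background in either line and was at least 114-fold lower in iPSC1-CM D13 and at least 62.6-fold lower in iPSC2-CM D9 than in neoCF, or at least 66.5-fold and 36.5-fold without neoCF replicate 1. Fabp4 was not well above background in iPSC2-CM D9 and was at least 6531-fold lower than in neoCF. The Cd34 call in iPSC1-CM D13 was lost without neoCF replicate 2 (-3.19) or iPSC1-CM D13 replicate 2 (-3.315), while its other probe was called lower (-3.46). In iPSC2-CM D9 the Robo4 call was lost without neoCF replicate 1 (-1.45). The Plvap call there was lost without neoCF replicate 1 (-0.96) or iPSC2-CM D9 replicate 1 (-0.92). It was also lost with the mean of its probes and on its other probe (-0.695). Of the macrophage markers 8 of 8 were lower in both lines (summed log2 level 0.51 and 0.55 for iPSC1-CM D13 and 1.03 and 1.48 for iPSC2-CM D9, with 6.52 and 5.99 for neoCF). All 7 cardiomyocyte markers were higher in both lines (9.46 and 9.41 for iPSC1-CM D13 and 10.37 and 10.90 for iPSC2-CM D9, with 7.34 and 6.81 for neoCF). Lower were 3 of 7 fibroblast markers in iPSC1-CM D13 and 7 of 7 in iPSC2-CM D9 (median -6.06), 4 and 5 of 6 smooth muscle and pericyte markers, 3 of 4 mesothelial markers in each line, and 4 and 3 of 5 platelet and erythroid markers. Of these lists, 1 smooth muscle and pericyte marker was higher in iPSC1-CM D13. In iPSC2-CM D9, 1 mesothelial marker and 1 platelet and erythroid marker were higher. The part of these lists in the result was not tested. Both comparisons share the neoCF arrays, which lay on another slide of the same scan day.

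Between the lines, which also differ in day, 10 genes were lower and 2 higher in iPSC1-CM D13 than in iPSC2-CM D9 (21.3% of all genes called, 9.33% lower). Vwf had -3.80 and -3.79 in iPSC1-CM D13, against 1.12 and 1.26 in iPSC2-CM D9 (-4.98 ± 0.46 SE, adjusted p = 5.3e-08). The 2 higher were Eng (2.35 ± 0.30 SE) and Fabp4, at least 47.5-fold. Calls were lost with an array removed for Icam2 (any of the 4), Tie1, Prox1, Emcn and Flt1, at adjusted p of 0.051 to 0.082. The 7 fibroblast markers were also all higher in iPSC1-CM D13 (summed log2 level 8.69 and 8.53, against 4.86 and 4.57 in iPSC2-CM D9), and their part in the result was not tested. From day 9 to day 29 of the second line, 17 genes were lower and 2 higher on day 29 (9.57% of all genes lower and 14.7% higher). Egfl7 had 3.24 and 3.34 on day 29, against 4.99 and 4.87 on day 9 (-1.64 ± 0.27 SE). Fabp4 had 5.66 and -0.00 on day 29 and was at least 290-fold above day 9 by their mean, at least 2065-fold from replicate 1 and at least 40.7-fold from replicate 2. The adipocyte markers differed likewise between these arrays, with a summed log2 level of 3.86 and -1.79 on day 29, against -2.85 and -3.76 on day 9. Pdpn rose as well (1.32 ± 0.18 SE). For most other genes the 2 day 29 arrays differ, as for Cdh5 with -0.78 and -5.20 on day 29, against 1.34 and 1.21 on day 9. Without replicate 2 of day 29, the differences of Cldn5 and Tal1 reversed to 0.27 and 0.05, and Sox18 (-0.54), Ramp2 (-0.34), Esam (-0.77) and Erg (-1.19) lost their calls. Without replicate 1 of day 29 Pecam1 (-0.50) and Prox1 (-1.63) did. Beside these, 5 of 7 cardiomyocyte, 4 of 4 proliferation, 4 of 5 platelet and erythroid and 4 of 6 smooth muscle and pericyte markers were lower on day 29, and 3 of 4 mesothelial markers were higher. Against this, 1 smooth muscle and pericyte marker was higher and 1 mesothelial marker lower. The summed log2 level of the proliferation markers was 4.91 and -0.84 on day 29, against 4.92 and 5.09 on day 9, and the part of these lists in the result was not tested.

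As a description over the 17 group means, the level of each gene was set against the mean of the other 31. Pearson's r was at least 0.8 for 16 genes, led by Sox7 (0.973), Nos3 (0.95) and Icam2 (0.937). It was under 0.3 for 7: Eng (0.257), Prox1 (0.181), Flt1 (0.18), Esm1 (0.177), Ecscr (0.164), Kdr (-0.067) and Pdpn (-0.229). Groups share slides, and all arrays share the 75th percentile scaling, so no p is given.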

How the data were processed

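RNA of 34 samples in 17 groups was hybridised to single-colour Agilent arrays. Per the file headers, spot intensity had its background subtracted and was detrended in Agilent's Feature Extraction (10.7.3.1). The authors also deposited log2 values (column medians 7.493 to 7.523), for which the submitters' processing notes name limma; these served as an alternative. Outlier spots (119 to 321 an array) were dropped, log2 was taken, the spots of each probe were averaged, and each array's 75th percentile was subtracted. Probes had to be well above background in 1 group or more, on both of its arrays, and a gene was read from its brightest remaining probe. Names came from RefSeq (GRCm38.p6), and probe coordinates are those of the array files (mm9). All arrays entered 1 fit with 17 group means (limma 3.58.1, R 4.3.3, 17 residual degrees of freedom), with Benjamini-Hochberg adjustment over 19417 genes. An at-least fold is given where every array of the lower side was under that detection limit: each such array counts at its own value or at its lowest detected signal, whichever is larger, and their mean is set against the higher side's mean. The number of arrays limits the precision.

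Alternatives were quantile normalisation, normexp (offset 50) with quantile, the authors' log2 values, no filter on dim probes, the mean of a gene's probes, slide and replicate blocks, leaving out the iPSC2-CM D29 arrays, and leaving out each array. The other probe of the 6 genes with 2 probes, the detection-limit bounds of the averaged MGT difference and the leaving out of arrays for the vessel list were added after seeing the data. The fit was tested on simulated data. Same-numbered replicates did not deviate together (r from -0.066 to 0.136), so the numbers do not pair samples. Genes named are the listed genes and, on the vessel list, those called; all 32 genes and all lists were chosen with earlier results of these data known. Figures were drawn in Python 3.11.15 with matplotlib 3.10.9.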

Additional observations from a re-analysis of the deposited data

Results flagged for a closer look

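Set against neoCF, 12 of the 32 genes differed between the 2 stem cell lines by the contrast of iPSC1-CM D13 with iPSC2-CM D9 itself, which also differ in day. The differences (log2, iPSC1-CM D13 minus iPSC2-CM D9) were -1.28 for Pecam1, -1.43 for Flt1, -3.07 for Tie1, -4.98 for Vwf, -2.65 for Emcn, -2.06 for Esam, -2.15 for Robo4, -1.11 for Icam2, -2.78 for Prox1 and -1.21 for Pdpn. Eng was higher by 2.35 and Fabp4 by 7.03 in iPSC1-CM D13. Fabp4 was not well above background in iPSC2-CM D9. Line and day cannot be told apart.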

How the results depend on the processing

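Calls of the 32 genes on day 3 of MGT against LacZ fell to 1, against 3, under quantile normalisation, normexp with quantile and the authors' log2 values, and came to 6 without the iPSC2-CM D29 arrays. Without those arrays day 5 gave 16, against 9, and the change between days 3 and 10 gave 2, against 0. That change gave 1 with the mean of a gene's probes and 1 with the other probe, and the averaged MGT difference gave 9, against 14, under normexp with quantile. Leaving out 1 array gave 1 on day 3, 5 to 8 on day 5, 8 to 10 on day 7, and 0 to 1 for the change between days. Kdr reversed with the mean of its probes and with its other probe: -0.11 and -1.37 for LacZ D3 against CF D0, -0.45 and -2.33 for LacZ D14 against CF D0, and 1.02 and 3.06 for iCM against LacZ D14. Erg had 1.04 on its other probe for iCM against LacZ D14 (adjusted p = 0.5), where the iCM arrays read -9.02 and -2.14, and its first probe was not well above background in either group, so its direction is not settled there. For iPSC2-CM D29 against D9, Cldn5 ran from -3.95 to 0.27 and Tal1 from -2.28 to 0.049 with 1 array left out, the positive values without D29 replicate 2. On its other probe Cd34 was called higher in LacZ D14 than in CF D0 (1.10) and in iCM than in LacZ D14 (1.02). It was also called higher there in iPSC1-CM D13 than in iPSC2-CM D9 (1.62), and in iPSC2-CM D29 than in D9 (2.215). The first Cd34 probe gave none of these calls. With a replicate block, the averaged MGT difference kept 14 calls and no other count changed. The SE of each gene holds the spread of all 17 groups, so the distance between the 2 iPSC2-CM D29 arrays enters every comparison. For Cdh5 these arrays read -0.78 and -5.20. The cause of the shifts in calls was not tested. With 2 arrays a group, a gene not called is not shown to be unchanged.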
